A study of Homo sapiens with 8 samples.

Results

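The genes described here are 10 that encode enzymes acting on androgens or named for doing so: the glucuronosyltransferases UGT2B10, UGT2B11, UGT2B15, UGT2B17 and UGT2B28, the hydroxysteroid dehydrogenases HSD17B4 and HSD17B11, the steroid reductases SRD5A1 and SRD5A3, and the aldo-keto reductase AKR1C3. They were chosen by name, and the count table held each of them once among its 36474 genes. Transcripts were counted in LNCaP, an androgen-responsive line from a lymph node metastasis of a human prostate carcinoma. All cells were starved in medium free of serum and calcium. Recombinant asporin (ASPN, a protein of the extracellular matrix secreted by stromal cells) was then given at 100 ng/mL. RNA was taken at 0 h, the start of treatment (2 libraries), and after 12 h (3 libraries) and 24 h (3 libraries) of ASPN. The aim was to ask how ASPN alters transcription in prostate cancer cells. Libraries of cells held in the medium for these times in the absence of ASPN were not analysed here. ASPN and time in starvation medium therefore cannot be told apart in any comparison, and a single cell line was used.

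Androgens drive the growth and secretion of prostate cells, which both make and remove them. AKR1C3 reduces androstenedione to testosterone, and SRD5A1 makes dihydrotestosterone or its precursor by reducing a double bond of the steroid ring. Removal ends in glucuronidation: UGT2B15 and UGT2B17, in the membrane of the endoplasmic reticulum, join glucuronic acid from UDP-glucuronic acid to the hydroxyl groups of dihydrotestosterone and its metabolites, which makes them inactive and soluble. In prostate cells both are known to be repressed by androgens.

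Libraries held 73406825 to 96962135 counts. Values below are CPM, the counts scaled to a common library size after TMM normalization. Where a gene has no count, its level may still reach 0.0310 to 0.0413 CPM depending on the library, with 3 counts as the limit. Such limits and the binomial intervals below cover counting error only. All 10 genes passed the filter on low counts, as did 21071 genes of the table. The labelled cell type was checked by its markers. The 9 luminal prostate markers, KLK3 and FOLH1 among them, summed to 4725 to 5469 CPM. Markers of other cells were mixed: 4 of 6 fibroblast, 1 of 3 basal, 1 of 4 leukocyte and 5 of 6 hepatocyte genes passed the filter. Others of these lists were near 0. DCN and ASPN (fibroblast) and TP63 (basal) had no more than 5 counts in any library, CD3E (leukocyte) no more than 1 and APOA2 (hepatocyte) no more than 2. Summed levels were 21.2 to 23.8 CPM for 6 fibroblast markers, mostly COL1A1, 0.0681 to 0.248 CPM for 3 basal markers, 0.0648 to 0.344 CPM for 4 leukocyte markers and 6.32 to 7.41 CPM for 6 hepatocyte markers. Of these other markers 11 were tested, and SERPINA1 of the hepatocyte list was the sole one past an adjusted p of 0.05 (log2 -1.14 at 24 h, adjusted p = 0.00395). In bulk RNA, fewer cells of a type and less RNA per cell cannot be told apart.

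The 5 UGT2B genes arose by duplication and lie in a cluster of UGT2 genes on chromosome 4. UGT2B17 (chr4:68537173-68576413, GRCh38, minus strand) and UGT2B15 (chr4:68646597-68670652, minus strand) are neighbours at one end of it. UGT2B10 (chr4:68815994-68832023, plus strand), UGT2B11 (chr4:69199951-69214748, minus strand) and UGT2B28 (chr4:69280475-69295050, plus strand) lie further along, and UGT2A3, UGT2B7 and UGT2B4, which are not among the 10, share the cluster. UGT2B15 and UGT2B17 were the most abundant of the 5 by far. Their coding sequences are 1590 bases long, differ at 55 bases (96.5% identity), and encode proteins of 530 residues that are 94.2% identical. UGT2B11 and UGT2B28 share 97.04% of coding bases and UGT2B10 and UGT2B11 95.01%, whereas UGT2B10 and UGT2B15 share 85.0%.

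A read from a stretch that both copies hold cannot be assigned from its own bases. For this reason the longest coding run that UGT2B15 and UGT2B17 share and the coding window in which they differ most are shown. The longest identical run is 199 bases long, from coding base 866 to 1064 of either gene, and spans 3 coding exons. It lies between chr4:68655124-68668047 in UGT2B15 and between chr4:68551853-68565579 in UGT2B17, introns included in these spans. The window of 60 bases in which the pair differs most holds 9 differing bases, shown in capitals, and lies within 1 coding exon at chr4:68670318-68670377 in UGT2B15 and chr4:68568184-68568243 in UGT2B17. All are GRCh38 reference sequence on the coding strand.
Run shared by UGT2B15 and UGT2B17: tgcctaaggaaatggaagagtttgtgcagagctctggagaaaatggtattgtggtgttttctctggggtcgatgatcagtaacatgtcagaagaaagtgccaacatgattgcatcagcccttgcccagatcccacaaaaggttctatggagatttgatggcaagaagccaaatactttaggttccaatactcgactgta
UGT2B15 coding bases 242 to 301: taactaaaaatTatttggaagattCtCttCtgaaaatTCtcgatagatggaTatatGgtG
UGT2B17 coding bases 242 to 301: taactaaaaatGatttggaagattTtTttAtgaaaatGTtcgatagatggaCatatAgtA

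Reads were sequenced as pairs of 150 bases. Of all 150-base windows along the annotated transcripts, 4.74% of those of UGT2B15 and 3.66% of those of UGT2B17 occurred in the other gene, 94 windows in each case. These windows were taken over whole transcripts, and the coding run printed above does not hold all of them. No such window was shared by UGT2B10 or UGT2B28 with any other gene. For UGT2B11 the share was 7.03%, mostly with the lncRNA gene ENSG00000250696 on the opposite strand, which covers 18.5% of its exon bases. Most windows of UGT2B15 and UGT2B17 thus differ between the pair, and how the counting treated reads that match both is not given in the sources used here.

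**Figure D1:**
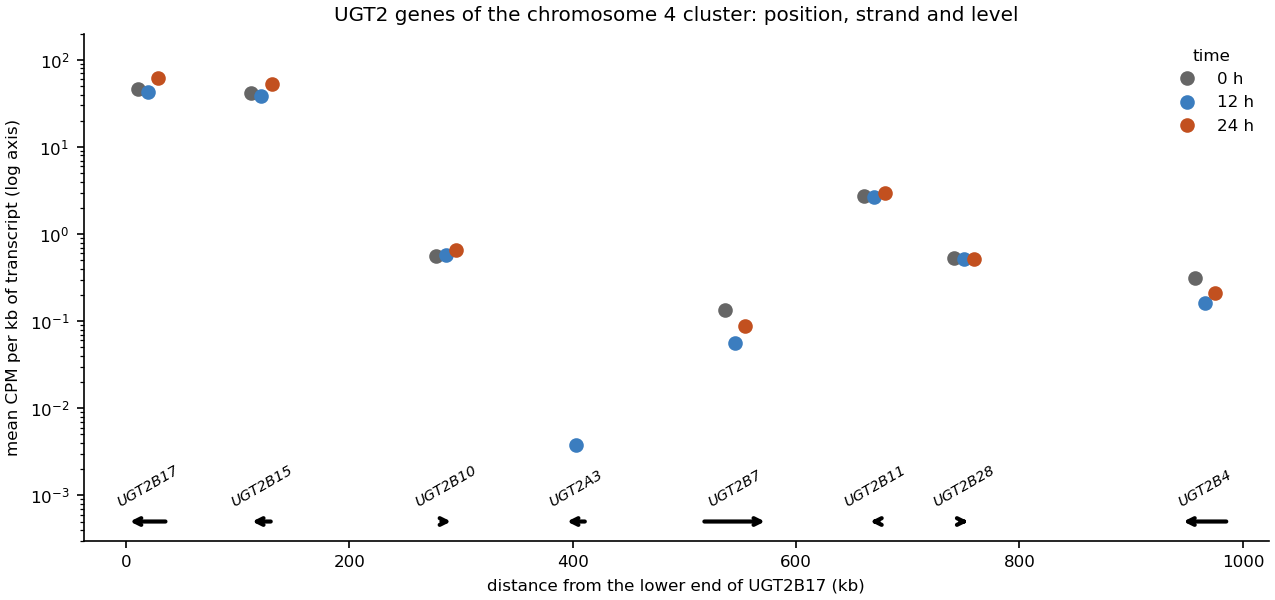
Position along chromosome 4 (kb from the lower end of UGT2B17), strand (arrows) and mean CPM per kb of transcript at each time (log axis, 1 point per time) for 8 UGT2 genes. UGT2B17 and UGT2B15 stood at 38.9 to 62.5 CPM per kb, and the other 6 genes below 3; the 0 h and 24 h means of UGT2A3 were 0 and are not drawn.

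Per kb of their canonical transcripts, the 10 genes spanned a wide range of levels. HSD17B4 was the highest at a mean of 106 CPM per kb over the 8 libraries (99.7 to 118). UGT2B17 followed at 51.2 (40.4 to 64.5) and UGT2B15 at 44.6 (38.4 to 53.5), and the ranges of this pair overlapped over the libraries. SRD5A1 stood at 4.85 CPM per kb (4.48 to 5.16), clear of its neighbours on both sides. HSD17B11 at 3.21, SRD5A3 at 3.09 and UGT2B11 at 2.79 were not separated, since their libraries ranged from 2.56 to 3.63 together. UGT2B10 at 0.603 and UGT2B28 at 0.522 overlapped likewise, and AKR1C3 was the lowest at 0.133, with 5 to 29 counts per library.

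**Figure D2:**
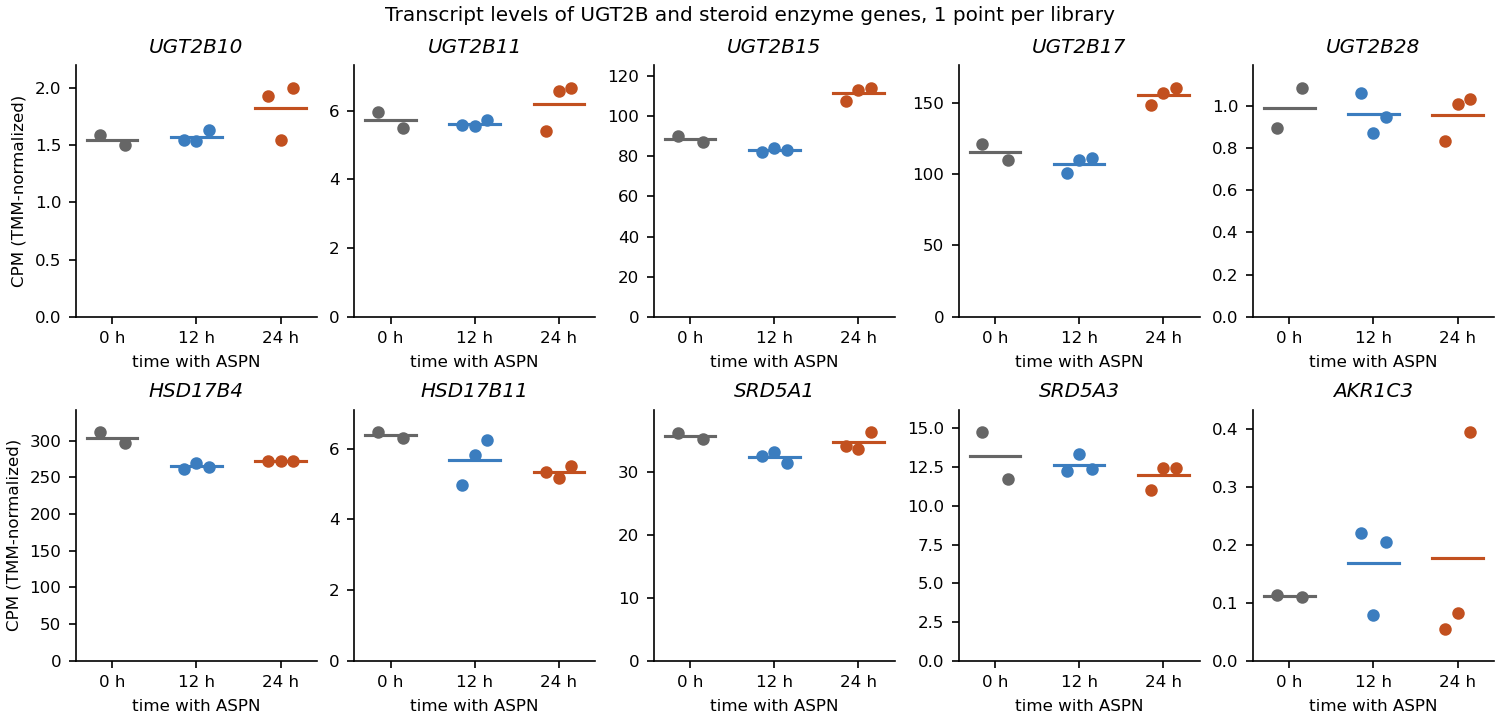
CPM of each gene in every library by time with ASPN (1 point per library, lines at group means, each panel with its own axis from 0). UGT2B15 and UGT2B17 at 24 h lay above all libraries of 0 h and 12 h, and HSD17B4 at 12 h and 24 h lay below both 0 h libraries.

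UGT2B15 and UGT2B17 rose between 12 h and 24 h of ASPN, after 12 h at which neither differed detectably from the start. They were the only members of the 10 to rise past an adjusted p of 0.05 in any comparison. From 0 h to 24 h UGT2B17 rose by 1.35-fold and UGT2B15 by 1.26-fold. HSD17B4, a peroxisomal enzyme, fell to 0.871 of its 0 h level at 12 h and was at 0.895 of it at 24 h. None of the 10 changed by 1.5-fold or more with an adjusted p of at most 0.05, the thresholds of the study, in any of the 3 comparisons.

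UGT2B17 was counted at 121 and 109 CPM at 0 h, at 100.3, 109.7 and 111 CPM at 12 h, and at 148, 157 and 160 CPM at 24 h. The 0 h and 12 h libraries overlapped, and each 24 h library was above all of the others. The means were 115 ± 8.13 CPM (SD, n = 2), 107 ± 5.91 CPM (SD, n = 3) and 155 ± 6.09 CPM (SD, n = 3). The log2 change from 0 h to 24 h was 0.43 (SE 0.053, 95% interval 0.32 to 0.54, adjusted p = 3.58e-07). That from 12 h to 24 h was 0.53 (SE 0.047, 95% interval 0.44 to 0.63, adjusted p = 2.17e-08), a 1.45-fold rise. In the main edgeR fit this p was the smallest of all 21071 genes tested between 12 h and 24 h. That between 0 h and 24 h ranked 227. By DESeq2 the adjusted p between 12 h and 24 h was 9.37e-22 for UGT2B17 and smaller, 8.57e-22, for UGT2B15. Between 0 h and 12 h the log2 change was -0.10 (95% interval -0.21 to 0.0022, adjusted p = 0.224), which did not pass.

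UGT2B15, which conjugates the hydroxyl group of dihydrotestosterone as UGT2B17 does, was counted at 90.3 and 87.1 CPM at 0 h, at 82.0, 84.1 and 83.3 CPM at 12 h, and at 107.9, 113 and 114 CPM at 24 h. Each time point was separate from the others, with 12 h lowest and 24 h highest. The means were 88.7 ± 2.25 CPM (SD, n = 2), 83.1 ± 1.04 CPM (SD, n = 3) and 112 ± 3.39 CPM (SD, n = 3). The log2 change from 0 h to 24 h was 0.33 (SE 0.048, 95% interval 0.24 to 0.43, adjusted p = 3.95e-06). From 12 h to 24 h it was 0.43 (SE 0.042, 95% interval 0.34 to 0.51, adjusted p = 9.39e-08). The p of this step ranked 5 of all genes in the main edgeR fit. From 0 h to 12 h the log2 change was -0.093 (95% interval -0.19 to 0.0032, adjusted p = 0.232) and did not pass, although the libraries did not overlap. With offsets corrected for the GC content and length of genes it was 0.014.

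The remaining 3 UGT2B genes were far less abundant, and no change of theirs passed the test. UGT2B11, a close relative with little known activity on androgens, was at 5.96 and 5.50 CPM at 0 h, 5.58, 5.54 and 5.74 CPM at 12 h, and 5.40, 6.57 and 6.66 CPM at 24 h. Its highest values were 2 of the 24 h libraries, but the lowest value was the other 24 h library. UGT2B10, which glucuronidates amines such as nicotine, had levels of 1.499 to 1.59 CPM before ASPN, 1.54 to 1.64 CPM after 12 h and 1.55 to 2.00 CPM after 24 h. UGT2B28, which can also conjugate androgens, was at 0.897 and 1.09 CPM, 0.875 to 1.06 CPM and 0.835 to 1.03 CPM at the 3 times, and its groups overlapped throughout. From 12 h to 24 h the log2 changes were 0.14 for UGT2B11 (95% interval -0.064 to 0.35, adjusted p = 0.592), 0.21 for UGT2B10 (95% interval -0.14 to 0.57, adjusted p = 0.659) and -0.0026 for UGT2B28 (95% interval -0.45 to 0.45, adjusted p = 0.999). The upper bounds for UGT2B10 and UGT2B28 lie above the log2 change of UGT2B15, so these intervals still include a change of that size, and the upper bound for UGT2B11 lies below it. Whether their changes differ from those of UGT2B15 and UGT2B17 was not tested.

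Because closely related copies may trade reads, the 5 genes were also summed. Together they took 220 and 205 CPM at 0 h, 190, 202 and 203 CPM at 12 h, and 264, 279 and 284 CPM at 24 h. The means were 212 ± 10.6 CPM (SD, n = 2), 198 ± 6.82 CPM (SD, n = 3) and 276 ± 10.2 CPM (SD, n = 3), and the sum of each 24 h library was above that of every earlier library. The sum does not depend on how reads were split among the 5 genes. UGT2B17 took 52.7% to 56.4% of the summed counts and UGT2B15 40.2% to 43.0%, followed by UGT2B11 at 2.04% to 2.93%, UGT2B10 at 0.556% to 0.810% and UGT2B28 at 0.316% to 0.558%.

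Of the counts that UGT2B15 and UGT2B17 held jointly, UGT2B17 took 57.3% and 55.7% at 0 h, 55.0%, 56.6% and 57.2% at 12 h, and 57.9%, 58.0% and 58.4% at 24 h. The 24 h shares were the highest 3, by a small margin. The lowest library had an exact (Clopper-Pearson) 95% interval of 54.2% to 55.9% and the highest of 57.7% to 59.1%. The mean share of 58.1% ± 0.26 (SD, n = 3) at 24 h exceeded that of 56.3% ± 1.12 (SD, n = 3) at 12 h by 1.82 percentage points and that of 56.5% ± 1.11 (SD, n = 2) at 0 h by 1.63 percentage points. The exact two-sided permutation test gave p = 0.1 for each, the smallest this number of libraries allows, and p = 0.9 between 12 h and 0 h.

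**Figure D3:**
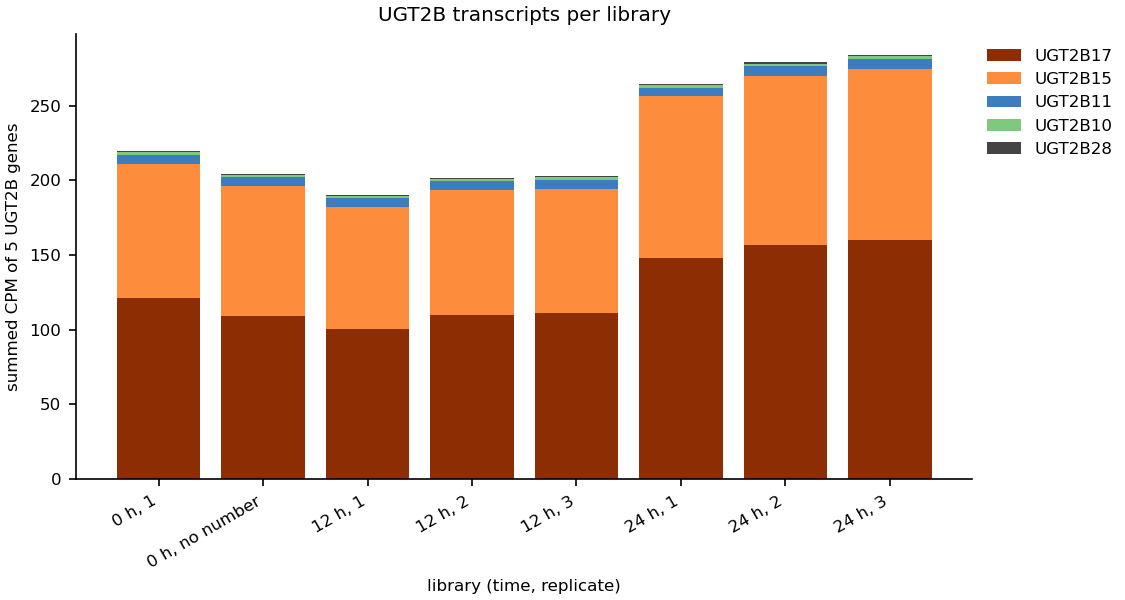
Summed CPM of the 5 UGT2B genes in each library, stacked by gene. The 24 h bars reach 264 to 284 CPM and the earlier bars 190 to 220 CPM, and UGT2B17 and UGT2B15 fill nearly all of every bar.

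The bases before the start of transcription are shown for UGT2B15, which rose, and for UGT2B11, for which no change passed, to place the pair side by side. Both sequences are the 250 bases upstream of the start in RefSeq (GRCh38.p14), at chr4:68670653-68670902 and chr4:69214749-69214998 on the minus strand, with motif matches in capitals.
UGT2B15 upstream: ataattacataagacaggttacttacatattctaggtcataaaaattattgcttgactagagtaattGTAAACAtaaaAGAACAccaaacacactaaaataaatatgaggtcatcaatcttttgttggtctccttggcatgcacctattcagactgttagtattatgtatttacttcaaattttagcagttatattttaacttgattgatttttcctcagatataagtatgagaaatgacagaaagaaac
UGT2B11 upstream: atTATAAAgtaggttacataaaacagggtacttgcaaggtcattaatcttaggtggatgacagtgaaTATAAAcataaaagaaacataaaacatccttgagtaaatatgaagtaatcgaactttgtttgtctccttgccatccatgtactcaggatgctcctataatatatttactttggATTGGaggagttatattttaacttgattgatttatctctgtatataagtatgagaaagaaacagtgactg

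The 250-base regions of UGT2B10 and UGT2B11 were 93.1% identical, and that of UGT2B15 was 75.8% identical to either. UGT2B17 and UGT2B28 were not among the RefSeq entries used here. A set of 8 motifs was searched on both strands, and their shares among 35116 promoters of this length give the rate at which such letters occur over all of these. The GC content was 28.4% in the UGT2B15 region and 31.2% in that of UGT2B11, and the shares were not adjusted for base composition. The UGT2B15 region held AGAACA, the hexamer of an androgen response element, at -172 to -167 from the start (12.4% of promoters held it), and TGTTTAC, a forkhead core, read as GTAAACA on this strand at -183 to -177 (2.98%). The UGT2B11 region held TATAAA at -248 to -243 and -183 to -178 (10.7%) and CCAAT, read as ATTGG, at -70 to -66 (32.0%). TGTTTGC (3.23%), GTTAAT (6.23%), TGANTCA (6.57%) and the full androgen response element, a palindrome whose left arm is AGAACA (1 promoter of 35116), had no match in either region. A match describes letters and not a site in use.

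HSD17B4 (chr5:119452465-119637199, plus strand) is a peroxisomal enzyme that shortens very long fatty acids and bile acid precursors and can oxidise estradiol and other steroids. It was counted at 311 and 297 CPM at 0 h, at 262, 269 and 264 CPM at 12 h, and at 272.0, 272.0 and 273 CPM at 24 h. Both 0 h libraries were above all later libraries. The means were 304 ± 10.04 CPM (SD, n = 2), 265 ± 3.81 CPM (SD, n = 3) and 272 ± 0.45 CPM (SD, n = 3). At 12 h the fitted log2 difference from 0 h was -0.20 (SE 0.042, adjusted p = 0.00161), and at 24 h it was -0.16 (SE 0.042, adjusted p = 0.00747). The step from 12 h to 24 h was 0.039 (adjusted p = 0.729), and although the groups did not overlap this did not pass. Without replicate 1 of 0 h the changes were -0.16 (adjusted p = 0.0629) and -0.13 (adjusted p = 0.114), and with offsets corrected for the GC content and length of genes they were -0.087 (adjusted p = 0.110) and -0.053 (adjusted p = 0.346), so that the fall passed in neither case.

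HSD17B11 (chr4:87336515-87391188, minus strand), a lipid droplet enzyme that oxidises androstanediol to androsterone, was at 6.46 and 6.30 CPM at 0 h, 4.97, 5.81 and 6.24 CPM at 12 h, and 5.35, 5.16 and 5.50 CPM at 24 h. Both 0 h libraries were the highest, but the log2 changes of -0.17 at 12 h (adjusted p = 0.400) and -0.26 at 24 h (95% interval -0.49 to -0.029, adjusted p = 0.124) did not pass. The lncRNA gene ENSG00000255723 shares 5.02% of its exon bases on the same strand.

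Neither steroid reductase changed past the threshold. SRD5A1 (chr5:6633427-6674386, plus strand), which reduces testosterone and androstenedione, was at 36.1 and 35.2 CPM at 0 h, 32.6, 33.2 and 31.5 CPM at 12 h, and 34.1, 33.7 and 36.3 CPM at 24 h. The 12 h libraries were the lowest. The log2 difference from 0 h was -0.14 at 12 h (adjusted p = 0.136, unadjusted p = 0.0252), -0.041 at 24 h (95% interval -0.16 to 0.078, adjusted p = 0.727) and 0.097 from 12 h to 24 h (adjusted p = 0.435). SRD5A3 (chr4:55346213-55373100, plus strand), named as a steroid reductase but known chiefly for reducing polyprenol to dolichol, the lipid that carries sugars for protein glycosylation, was at 14.7 and 11.7 CPM at 0 h, between 12.2 and 13.3 CPM after 12 h and between 11.04 and 12.5 CPM at 24 h. Of the 0 h libraries, replicate 1 was the highest of all and the other was below all 12 h libraries. Its log2 change at 24 h was -0.15 (95% interval -0.33 to 0.037, adjusted p = 0.314), which became -0.29 (adjusted p = 0.0450) without the lower 0 h library and 0.026 (adjusted p = 0.936) without the higher. Of its 150-base windows, 26.6% occur in other genes, mainly the readthrough gene ENSG00000288695 on the same strand, and the antisense gene SRD5A3-AS1 overlaps 14.0% of its exon bases, so its counts are uncertain.

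AKR1C3 (chr10:5035354-5107686, plus strand), the reductase that makes testosterone from androstenedione, was barely counted. The libraries held 10 and 8 counts at 0 h, 17, 7 and 18 counts at 12 h, and 5, 8 and 29 counts at 24 h. The 24 h libraries were both the lowest and the highest. The log2 changes of 0.58 at 12 h (95% interval -1.03 to 2.18) and 0.62 at 24 h (95% interval -0.99 to 2.22, adjusted p = 0.687) leave a rise or a fall of over 1.5-fold possible, and without replicate 3 of 24 h the latter was -0.69.

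**Figure D4:**
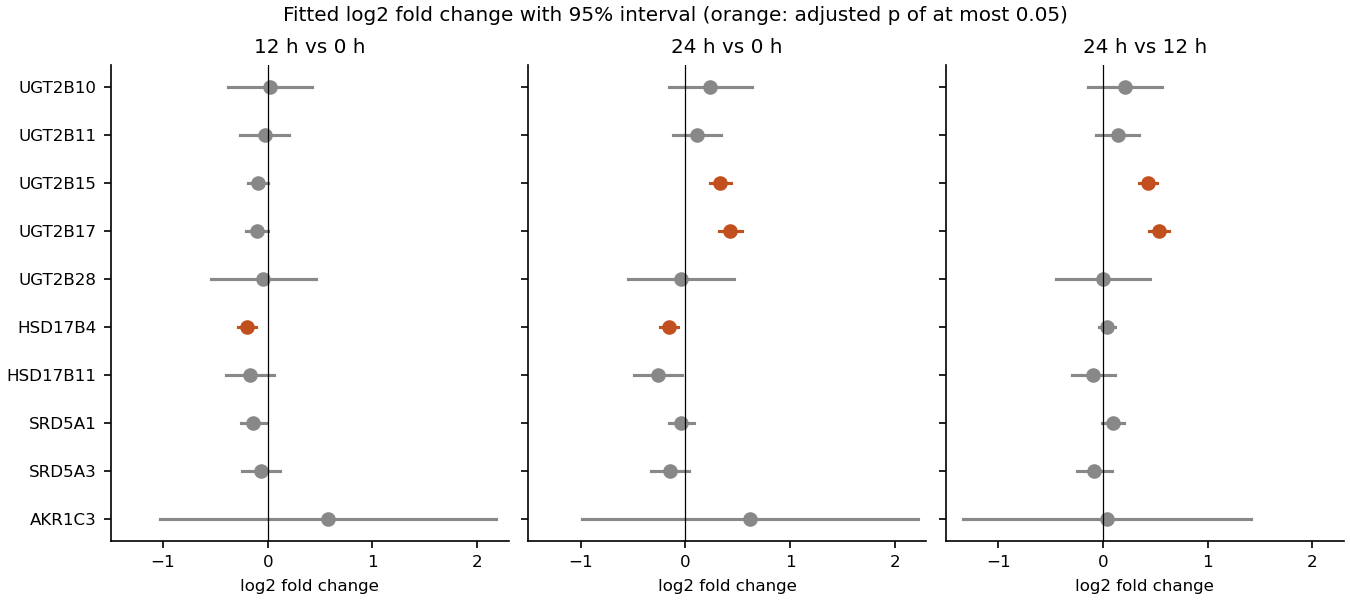
Fitted log2 fold change of each gene with its 95% interval in the 3 comparisons (orange, adjusted p of at most 0.05). Only UGT2B15, UGT2B17 and HSD17B4 are orange, and the intervals of AKR1C3 are the widest.

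Set against all genes tested, the counts were as follows. From 0 h to 12 h, 1 of the 10 passed an adjusted p of 0.05 (0 higher, 1 lower), where 11.6% of all genes did, 4.85% higher and 6.75% lower. The libraries of 0 h and 12 h did not overlap for 4 of the 10, where this held for 36.9% of all genes. All 4 were lower at 12 h (UGT2B15, HSD17B4, HSD17B11 and SRD5A1) and 0 higher, against 19.6% and 17.3% of all genes. From 0 h to 24 h, 3 passed (2 higher, 1 lower), where 16.3% of all genes did, 7.82% higher and 8.49% lower. Groups did not overlap for 4 of the 10, where this held for 43.2% of all genes, and 2 of these were higher (UGT2B15 and UGT2B17) and 2 lower (HSD17B4 and HSD17B11), against 21.5% and 21.7%. Between 12 h and 24 h, 2 passed (2 higher, 0 lower), where 2.72% of all genes did, 1.12% higher and 1.61% lower. Groups did not overlap for 4 of the 10, where this held for 19.6% of all genes. All 4 were higher at 24 h (UGT2B15, UGT2B17, HSD17B4 and SRD5A1) and 0 lower, against 10.3% and 9.33%.

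With the 1.5-fold threshold added, 0 of the 10 were called in each comparison by edgeR, which called 1.05%, 2.45% and 0.180% of all genes. DESeq2 gave an adjusted p to 9, 9 and 8 of them and called 0. At an unadjusted p under 0.05, 2, 4 and 2 of the 10 passed, 0 of them at 1.5-fold. The median log2 change of the 10 was -0.080, 0.036 and 0.068, and that of all genes -0.00069, -0.0031 and 0.0035. Both comparisons with 0 h use the same 0 h libraries.

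UDP-glucuronic acid, the sugar donor of every UGT2B enzyme, is made by UGP2 and UGDH. The transcripts of both were lower at 24 h than at 0 h, whereas those of UGT2B15 and UGT2B17 were higher. UGP2, which makes UDP-glucose, was at 76.8 ± 6.26 CPM (SD, n = 2) before ASPN, 65.4 ± 0.83 CPM (SD, n = 3) after 12 h and 62.1 ± 0.68 CPM (SD, n = 3) after 24 h (log2 -0.31, SE 0.052, adjusted p = 4.51e-05). UGDH, which oxidises UDP-glucose to UDP-glucuronic acid, was at 125 ± 4.87, 107 ± 8.79 and 102 ± 1.74 CPM (SD, n = 2, 3 and 3) at these times (log2 -0.29, SE 0.053, adjusted p = 0.000142). Both had already fallen at 12 h, by 0.23 and 0.22 on the log2 scale (adjusted p = 0.00247 and 0.00525). Of 10 tested genes for the supply of this sugar and the export of glucuronides, 1 rose and 2 fell at 24 h, the same numbers did so at 12 h, and 0 passed from 12 h to 24 h. The gene that rose in each was PGM1, which makes glucose 1-phosphate (log2 0.15 at 24 h, adjusted p = 0.0315). The exporters ABCC1 and ABCC4 had log2 changes of 0.043 and -0.041 at 24 h, which did not pass.

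Other UGT genes were scarce. Of 17 listed, 11 had counts and 3 passed the filter, with 0 past the test in any comparison: UGT2B4 at 0.66, 0.34 and 0.44 CPM at the 3 times, UGT2B7 at 0.25, 0.11 and 0.16 CPM, and UGT8, which makes galactosylceramide, at 5.07, 5.25 and 5.37 CPM. UGT2B7, known for glucuronidating morphine and steroids, had no more than 31 counts in any library.

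Among 13 tested genes of androgen synthesis, 1 rose and 2 fell at 24 h. CYB5A, the cytochrome that aids the lyase step of androgen synthesis, rose (log2 0.29, SE 0.045, adjusted p = 1.45e-05), and FDXR, which passes electrons to mitochondrial steroid hydroxylases, fell (log2 -0.33, SE 0.066, adjusted p = 0.000458). Both passed at 12 h as well, as the only genes of the list, and 0 of the 13 did from 12 h to 24 h. The other gene that fell at 24 h was CYP11A1 (log2 -2.07, adjusted p = 0.00783), at 5 to 34 counts per library. Among 11 tested genes of other steroid inactivation, 2 rose and 1 fell at 24 h. HSD11B2, which inactivates cortisol, rose (log2 0.33, SE 0.063, adjusted p = 0.000258), PAPSS1, which makes the sulfate donor of sulfotransferases, fell (log2 -0.32, SE 0.046, adjusted p = 4.63e-06), and the sulfotransferase SULT2B1 also rose (log2 0.48, adjusted p = 0.0230). These same genes were the 3 past the test at 12 h, and 0 of the 11 passed from 12 h to 24 h. AKR1C1 and AKR1C2, close relatives of AKR1C3 that inactivate dihydrotestosterone, had 12 to 46 and 17 to 29 counts per library.

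Many androgen-induced genes were already higher at 12 h. At that time, 8 of 15 tested rose and 0 fell, and at 24 h 8 rose and 1 (SLC45A3) fell, whereas from 12 h to 24 h 1 rose and 2 fell. KLK3, the gene for prostate-specific antigen, was at 965 ± 75.4 CPM (SD, n = 2), 1356 ± 33.3 CPM (SD, n = 3) and 1194 ± 68.1 CPM (SD, n = 3) at 0 h, 12 h and 24 h (log2 0.31 from 0 h to 24 h, adjusted p = 1.71e-05), and it fell between 12 h and 24 h by 0.18 on the log2 scale (adjusted p = 0.0129). KLK4 had a log2 change of 0.34 at 24 h (adjusted p = 9.46e-06). SLC45A3 fell from 12 h to 24 h (log2 -0.32, adjusted p = 5e-06) and MAF rose (log2 0.36, adjusted p = 0.0442).

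Genes known to be repressed by androgens went several ways. Of 6 tested, 2 rose and 2 fell at 12 h, 2 rose and 1 fell at 24 h, and 2 rose from 12 h to 24 h. ACKR3, a chemokine receptor, rose (log2 0.56 at 24 h, SE 0.049, adjusted p = 3.96e-10), and OPRK1, an opioid receptor, fell (log2 -0.30, SE 0.086, adjusted p = 0.0151). BCHE, a cholinesterase, was at 99.9, 81.4 and 107 CPM at the 3 times, falling by 12 h (log2 -0.30, adjusted p = 0.000140) and rising from 12 h to 24 h (log2 0.39, adjusted p = 2.7e-06). Of the luminal markers, 8 of 9 rose at 24 h and KRT18 fell, and at 12 h 6 rose. Between 12 h and 24 h FOLH1 rose and KLK3 fell. Their part in the changes of the UGT2B genes was not tested.

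Of 8 tested receptors and factors known to act on UGT2B genes, 1 rose and 2 fell at 24 h. RXRA, the partner of many nuclear receptors, rose (log2 0.19, SE 0.048, adjusted p = 0.00483), NFE2L2, the factor of the antioxidant response, fell (log2 -0.19, SE 0.050, adjusted p = 0.00852), and AHR, the dioxin receptor, fell (log2 -0.54, adjusted p = 0.0204). NFE2L2 had fallen at 12 h, as the only gene of the list, and 0 passed from 12 h to 24 h. FOXA1, a forkhead factor of luminal cells, was at 515, 513 and 539 CPM (log2 0.063 at 24 h, adjusted p = 0.357), and HNF4A, which drives UGT2B genes in liver, had at most 5 counts in a library. RXRA, NFE2L2 and OPRK1 passed or not depending on which library was left out: without replicate 1 of 0 h their adjusted p were 0.189, 0.155 and 0.129.

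Genes of the processes in which HSD17B4, SRD5A3 and HSD17B11 take part were counted in the same way. Of 17 tested genes of peroxisomal beta-oxidation, 4 rose and 3 fell at 24 h, led by AMACR, a racemase used as a prostate cancer marker (log2 0.55, SE 0.10, adjusted p = 0.000172), and DECR2, a reductase (log2 0.36, SE 0.081, adjusted p = 0.00162, and 0.127 without replicate 1 of 0 h). CRAT also rose, and ABCD2, EHHADH and ECI2 fell. At 12 h 2 rose, AMACR among them, and 0 fell. Of 23 tested genes of dolichol synthesis and use, 3 rose (ALG3, ALG6 and ALG8) and 10 fell at 24 h, led by NUS1, a subunit of the dolichol-making prenyltransferase (log2 -0.39, SE 0.055, adjusted p = 4.76e-06), and ALG2, a mannosyltransferase (log2 -0.36, SE 0.053, adjusted p = 7.44e-06). At 12 h NUS1, ALG2, ALG14 and DPM1 fell and 0 rose. Of 14 tested lipid droplet genes, 3 rose and 1 fell at 24 h, among them DGAT2, which makes triglycerides (log2 0.39, SE 0.071, adjusted p = 0.000173), and ACSL4 (log2 0.25, SE 0.068, adjusted p = 0.00789, and 0.0885 without the 0 h library that has no number). The others were AUP1, which rose, and PLIN4, which fell and was the only one past the test at 12 h. DGAT2 was the sole gene of these 3 lists to pass from 12 h to 24 h (log2 0.25, adjusted p = 0.0199). At 24 h the median log2 change was 0.00081 for the sugar supply and export list, -0.58 for the other UGT genes, -0.069 for androgen synthesis, -0.074 for steroid inactivation, 0.20 for androgen-induced and 0.11 for androgen-repressed genes, -0.12 for the receptors and factors, 0.066 for peroxisomal beta-oxidation, -0.13 for dolichol and 0.039 for lipid droplets, beside -0.0031 for all genes. The median of the other UGT genes rests on 3 tested genes, of which 0 passed. Among them UGT2B4 had 20 to 56 counts per library and UGT2B7 4 to 31. Genes beyond the leading pair of each list, and those given for 12 h or for 12 h to 24 h, were named after their values were seen.

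The genes whose log2 CPM followed UGT2B17 most closely over the 8 libraries, among 13456 whose normalized counts averaged 100 or more, were DDC, the decarboxylase that makes dopamine and serotonin (Pearson r = 0.993), TMSB4X, which binds actin (r = 0.987), and the histone gene H2BC21 (r = 0.985). For UGT2B15 they were H2BC21 (r = 0.979), DDC (r = 0.978) and APP, the amyloid precursor (r = 0.977). These describe libraries that fall into 3 time points, so a like step between the times gives a high value by itself. From 12 h to 24 h the log2 change was 0.55 in DDC, 0.30 in TMSB4X, 0.29 in H2BC21 and 0.12 in APP, beside 0.53 in UGT2B17 and 0.43 in UGT2B15. From 0 h to 12 h the log2 change was -0.16 in DDC, -0.071 in TMSB4X, -0.079 in H2BC21 and -0.025 in APP. The sign was opposite to that of the later step in each, as in the UGT2B pair, whose changes at 12 h did not pass. These genes were picked for following the pair over the same libraries, so the shared signs come with the choice. With offsets corrected for GC content and length, the change of UGT2B15 at 12 h was 0.014, of the other sign.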

How the data were processed

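Total RNA of ASPN-treated LNCaP cells was sequenced by the authors from TruSeq mRNA libraries. The deposited table holds whole-number read counts for each gene, not normalized. Per the labels and methods, adapters were trimmed with Cutadapt, reads were aligned to GRCh38 with STAR and counted with featureCounts. Strand, read-pair and multi-mapping options are not given in the sources used here. A time-0 library had been dropped by the authors for its quality. Columns were matched to samples by time and number, and a 0 h column whose number no 0 h label carries was used without a number.

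Genes kept by filterByExpr were fitted in edgeR 4.0.16 (R 4.3.3) with TMM, 1 coefficient per time over all 8 libraries, and the robust quasi-likelihood F test. P-values were adjusted over 21071 genes by Benjamini-Hochberg. SE is the log2 change over the square root of F. The biological coefficient of variation was 5.59%. The labels name biological replicates, plated as separate wells, so p-values measure the spread between wells. Replicate pairs differed beyond sampling noise (chi-square per degree of freedom 5.10 to 13.8). Levels per kb use canonical transcripts of GENCODE 44, whose coordinates equalled the file's for 30996 of 30996 shared identifiers. Windows of 150 bases gave read sharing. The procedure was tested on simulated counts.

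The 10 genes, the lists of related genes and the tests were chosen with earlier results of these data known. All 10 genes are named. So are the 2 genes of each list with the smallest p among those past 0.05 at 24 h, and the 3 genes most correlated with each of the 2 members of smallest p at 24 h. Alternatives were RLE and upper-quartile normalization, no filter, a filter at a mean of 100 normalized counts, DESeq2 1.42.0, the compared times alone, each library left out, a replicate block and, added after seeing the data, a block by the numbers of the columns and offsets corrected for GC content and length (21034 of 21071 genes had both). Some genes counted in the lists are not reported here by name.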

Additional observations from a re-analysis of the deposited data

Results flagged for a closer look

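UGT2B15 and UGT2B17 stood out because their change from 0 h differed between the time points. At 12 h both lay slightly below 0 h without passing the test (UGT2B15 slightly above it, at 0.014, with offsets corrected for GC content and length), and at 24 h both lay above it, and the difference between these effects, tested as the contrast of 24 h with 12 h, was 0.43 on the log2 scale for UGT2B15 (adjusted p = 9.39e-08, edgeR) and 0.53 for UGT2B17 (adjusted p = 2.17e-08, edgeR). Each 24 h library was above each 12 h library for both genes. As the genes share 94 of their 150-base windows, they are not fully independent measurements.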

How the results depend on the processing

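The rises of UGT2B15 and UGT2B17 from 0 h to 24 h and from 12 h to 24 h kept their direction and passed under every alternative run, at 0.31 to 0.41 and 0.36 to 0.50 from 0 h and 0.40 to 0.45 and 0.48 to 0.56 from 12 h (log2). With each library left out in turn, the number of the 10 genes past an adjusted p of 0.05 ranged from 0 to 1 at 12 h, with 0 without replicate 1 of 0 h, and from 2 to 4 at 24 h. With offsets corrected for GC content and length it was 0 at 12 h. The fall of HSD17B4 was lost in these settings, as given above. Changes that never passed and changed sign with those offsets were, at 12 h, UGT2B11 (0.086), UGT2B15 (0.014) and UGT2B28 (0.048), and at 24 h UGT2B28 (0.023). Leaving out libraries gave, at 12 h, -0.075 to 0.030 for UGT2B11, -0.21 to 0.11 for SRD5A3, -0.0045 to 0.069 for UGT2B10 and -0.18 to 0.11 for UGT2B28, and at 24 h -0.29 to 0.026 for SRD5A3, -0.18 to 0.10 for UGT2B28 and -0.69 to 1.05 for AKR1C3. From 12 h to 24 h it gave -0.068 to 0.090 for UGT2B28 and -1.26 to 0.47 for AKR1C3. The causes were not tested. Among the named genes of other lists, RXRA did not pass with the offsets (0.097, adjusted p = 0.0551), nor ACSL4 and OPRK1 without the 0 h library that has no number, nor OPRK1 and NFE2L2 without replicate 1 of 24 h. Libraries of the same number at 12 h and 24 h were weakly correlated (0.12, 0.030 and 0.029). The first of these was the highest of all pairs, and replicate 2 of 12 h was closest to replicate 3 of 24 h (0.073). With 3 libraries per time, centred on their mean, such values cannot decide whether the numbers pair the libraries. A fit with the replicate block left 2 of the 10 past the threshold from 12 h to 24 h and changed the sign of AKR1C3 (-0.18) alone. Another block used the numbers of the columns, an alternative chosen after seeing the data. In it the second 0 h column has a number that no 0 h label carries. With this block 1 of the 10 passed at 12 h and 3 at 24 h. No call or direction of the 10 in the comparisons with 0 h changed. The leading pairs of the lists kept theirs at 24 h. Other genes of the lists were not run under the alternatives. At 76 to 98 counts per library UGT2B28, and at 5 to 29 AKR1C3, depth limits what could be seen.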
